A study of Mus musculus with 8 samples.

Results

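The parietal bone of the skull vault was compared with the femur across all genes, with 2 parietal and 3 femur libraries out of the 8 in the series. The 5 libraries were taken by their bone label, and no measured value entered the choice. All 8 libraries came from C57BL/6 mice aged 12 weeks, with no allele, treatment or agent named in the labels. RNA was taken from bone fractions enriched for osteocytes, so these are enriched tissues and not sorted cells. The other 3 libraries were from the frontal bone and serve below to show where the parietal bone differed from its neighbour. Each library is called by its bone and its label's number, which gives femur 1, 2 and 4, frontal 1, 2 and 4, and parietal 2 and 4. The labels leave unsaid whether single or pooled animals lie behind a library and whether animals were shared, so p-values reflect library-to-library spread alone, some of which may be technical.

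Osteocytes are former osteoblasts that became enclosed in mineralized matrix, where they keep contact through long processes, sense load, and secrete factors that act on bone formation, bone resorption and phosphate handling. The parietal bone arises from paraxial mesoderm and ossifies directly within membrane. The femur arises from lateral plate mesoderm and ossifies through a cartilage model. The frontal bone arises from neural crest. The parietal bone and the femur therefore share a germ layer but differ in body position, mode of ossification and load.

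The femur libraries held 6259229 to 11069689 gene counts and the parietal ones 13461622 and 10190495. Spearman correlations across genes, which are not independent replicates, were 0.986 for the parietal pair, 0.971 to 0.984 within the femur, 0.849 to 0.886 between the parietal bone and the femur, and 0.954 to 0.977 between the parietal and frontal bones. Levels are in CPM, counts scaled to the TMM-adjusted library total as edgeR gives them, and per-library values are given in the order femur 1, 2 and 4 and then parietal 2 and 4. The test was edgeR's quasi-likelihood test over 15511 genes, and calls are those with a Benjamini-Hochberg adjusted p under 0.05. Each log2 fold change is parietal minus femur and carries its standard error (SE). Because CPM is relative to the library total, each direction given is relative to the median gene, whose log2 fold change was 0.006. Fewer cells of a type and less RNA per cell cannot be told apart in such fractions.

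The promoter sequences below belong to 4 genes that stand for 4 gene groups which moved together between the bones, described further on. They show the letters through which the factors of those groups are known to act, namely ACGTG for the hypoxia-inducible factors, GGAATG for the TEAD factors of the Hippo pathway, AGATAA for the GATA factors of red cell precursors, and TGACG for the CREB factors that act on immediate early genes. Each sequence is the 250 bases before the listed start of the gene, 5′ to 3′ on the gene's strand, from RefSeq on GRCm38.p6. P4ha2 lies at chr11:54100674-54100923 on the plus strand, Amotl2 at chr9:102717554-102717803 on the plus strand, Hbb-bs at chr7:103827929-103828178 on the minus strand and Fosb at chr7:19310046-19310295 on the minus strand. Capitals mark the motif, which in Amotl2 reads as its reverse complement CATTCC. Group members on a single chromosome, that of Egr1, were not considered. Each gene was picked by small p among the other members of its group whose only listed window held the motif. The 4 genes therefore do not stand for the members without it.
P4ha2: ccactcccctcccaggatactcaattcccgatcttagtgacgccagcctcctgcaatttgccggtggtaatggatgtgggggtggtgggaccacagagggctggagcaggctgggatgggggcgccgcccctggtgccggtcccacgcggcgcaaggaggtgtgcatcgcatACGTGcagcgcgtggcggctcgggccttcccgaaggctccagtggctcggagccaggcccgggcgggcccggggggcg
Amotl2: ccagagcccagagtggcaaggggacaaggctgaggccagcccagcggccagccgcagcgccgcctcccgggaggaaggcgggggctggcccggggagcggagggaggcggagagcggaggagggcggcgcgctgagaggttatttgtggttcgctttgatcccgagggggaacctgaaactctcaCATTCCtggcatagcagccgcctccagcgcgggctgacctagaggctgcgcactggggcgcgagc
Hbb-bs: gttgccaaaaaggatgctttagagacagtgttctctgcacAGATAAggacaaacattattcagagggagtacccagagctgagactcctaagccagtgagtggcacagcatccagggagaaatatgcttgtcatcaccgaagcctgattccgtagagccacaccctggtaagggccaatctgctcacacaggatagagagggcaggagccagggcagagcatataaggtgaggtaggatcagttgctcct
Fosb: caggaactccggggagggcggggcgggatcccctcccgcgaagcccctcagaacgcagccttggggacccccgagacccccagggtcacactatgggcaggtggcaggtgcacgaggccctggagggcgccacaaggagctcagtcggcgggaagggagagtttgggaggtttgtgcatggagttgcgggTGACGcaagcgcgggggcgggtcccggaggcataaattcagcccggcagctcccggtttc
Both strands were searched in windows of this length for 27025 genes, and a gene was counted when any of its windows held the motif. ACGTG stood in 18.5% of these genes and in 14 of the 18 matched hypoxia targets (77.8%), of 21 tested. GGAATG stood in 14.4% of all genes and in 8 of 21 matched mechanosensing genes (38.1%), of 29 tested. AGATAA stood in 11.4% of all genes and in 6 of 18 matched erythroid genes (33.3%), of 28 tested. TGACG stood in 19.8% of all genes and in 14 of 24 matched immediate early and heat shock genes (58.3%), of 29 tested. Some members of these lists are known as targets of these factors, a match is a description of letters and not a bound site, and a window without a match says nothing of the factor.

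Across all genes, 8633 of 15511 were called between the parietal bone and the femur (55.7%). Of these, 4199 were higher in the parietal bone (27.1% of the genes tested) and 4434 were lower (28.6%). List counts below are to be read beside these shares. For cranial patterning, interferon, retinoid and platelet genes the share called higher lay near or below 27.1%. For hormone receptors the share called lower lay near 28.6%. Large changes were mostly decreases. On the log2 scale 2645 genes rose and 3036 fell by over 1, 459 rose and 1087 fell by over 2, and 20 rose and 131 fell by over 4. Both parietal libraries lay above all 3 femur libraries for 5599 genes (36.1%) and below them for 5573 (35.9%). The split depends on what is held constant. Scaled to the spike-in controls, whose share of reads ran from 0.0286 to 0.116% in the femur and was 0.105 and 0.142% in the parietal bone, the median gene shifted to -1.14 and the calls became 16 higher and 1679 lower. Scaled to the osteoblast and bone matrix genes, it shifted to 1.23, with 9072 higher and 828 lower. Fold changes are therefore read against the median gene throughout. Where a list below has 0 calls in a direction in edgeR's test, DESeq2 and limma-voom also gave 0, and 0 members had an unadjusted p under 0.05 in that direction, except 1 Wnt target. Read against the median gene, no list median moved by over 1.5-fold under either of these scalings. Each scaling shifts all genes nearly alike, so this could hardly come out otherwise and is no check. Without that reference, spike-in scaling turned 10 of 48 list medians from higher to lower, osteoclast, granulocyte, monocyte and B cell genes among them. Osteoblast scaling turned 16 from lower to higher, among them Wnt target, hypoxia and endothelial genes. The osteoblast list is counted in the 16, but it sets that scale, so its median (0.09) was bound to lie near 0.

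**Figure D1:**
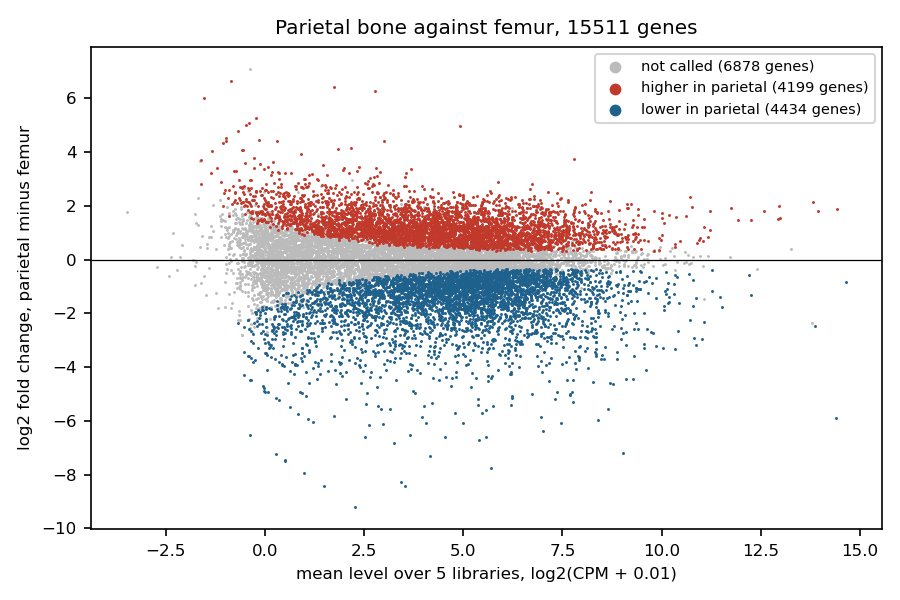
Log2 fold change, parietal minus femur, against the mean level of each of the 15511 genes over the 5 libraries in log2(CPM + 0.01), with 1 point per gene. Red points are the 4199 genes called higher in the parietal bone, blue points the 4434 called lower and grey points those not called, and the lower side reaches further from 0 than the upper side.

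The 12 largest decreases and the 12 largest increases were taken among called genes that reached a mean of 5 CPM in the higher bone and did not overlap. Fgf1, a fibroblast growth factor, stood at 1280, 827 and 508 CPM in the femur libraries and at 5.27 and 6.50 CPM in the parietal ones (log2 fold change -7.21, SE 0.50, adjusted p = 2.42e-06). Adamtsl2, a secreted glycoprotein that binds microfibrils, stood at 90.4, 71.2 and 96.8 CPM against 0.306 and 0.485 CPM (-7.75, SE 0.40, adjusted p = 6.11e-07). Il11, a cytokine of the gp130 family, stood at 83.4, 87.4 and 37.1 CPM against 0.306 and 1.07 CPM (-6.71, SE 0.53, adjusted p = 2.63e-06). Lack of overlap was a condition of the choice of these 3 genes and is no further result. Several others held so few parietal counts that only a ratio with a counting interval can be given. Wnt7b, a Wnt ligand, had 412 counts in the femur and 1 in the parietal bone, a femur level 373-fold higher relative to the library totals (95% interval 66.6 to 14800). Neu2, a sialidase, had 462 counts against 1 (419-fold, 74.7 to 16600). Foxa3, a forkhead factor, had 395 against 3 (119-fold, 40.5 to 581). Sprr1a, a cornified envelope protein also induced by injury and load, had 195 counts in the femur and 0 in the parietal bone, which puts the femur at least 58.9-fold higher. The remaining decreases of the 12 were Bmp8b (-7.32), Hr (-6.60), Hoxa10 (-6.60), Gpr3 (-6.58) and Aldh1a3 (-6.52). With 1 parietal library left out the fold changes of Wnt7b, Neu2, Bmp8b and Il11 ran from -10.35 to -7.34, -10.47 to -7.46, -8.40 to -6.63 and -7.80 to -6.03, and that of Hr reached -7.55 without parietal 2.

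The 12 increases chosen in the same way were smaller than the 12 decreases. The limit of 5 CPM leaves out genes of low level such as Mrgprb1 and Zic1, which were called higher with fitted values of 6.65 and 4.09. Car1, a carbonic anhydrase of red cell precursors, stood at 25.3, 41.7 and 44.2 CPM in the femur and at 526 and 474 CPM in the parietal bone (log2 fold change 3.74, SE 0.21, adjusted p = 7.72e-07). Hebp1, a heme-binding protein, stood at 2.06, 2.64 and 3.15 CPM against 29.3 and 26.6 CPM (3.39, SE 0.21, adjusted p = 1.09e-06). Klrb1c, a receptor of natural killer cells, stood at 0.688, 0.661 and 1.17 CPM against 8.18 and 8.92 CPM (3.32, SE 0.33, adjusted p = 9.49e-06). For these 3 genes, too, lack of overlap was a condition of the choice. Rspo2, a secreted amplifier of Wnt signalling, rose by 3.31 and Itgbl1, an integrin-like matrix protein, by 3.03. The others were Aldh1a7 (3.54, and 4.60 without femur 4), the small nucleolar RNA Rnu3a (3.45), the myeloid lectin Clec4b1 (3.25), the histone gene Hist1h2an (3.12), the zinc finger gene Zfp808 (3.09), the nucleolar protein gene Npm3 (3.07) and Tac2, a tachykinin (3.01). Hist1h2an belongs to a family of near-identical copies, so its value is uncertain. Removing a trend over gene length and GC content gave 7922 calls, among them 6335 of the 8633, while 451 of the 8633 turned in sign. Of the 315 called genes named by rule or list, removing the trend moved 129 by over 1.5-fold, 121 of them toward 0.

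Blood cell RNA took a larger share of the parietal libraries, and osteocyte RNA a smaller one. Erythroid genes held 7.64 and 8.30% of parietal counts against 1.33, 2.52 and 3.18% in the femur. Granulocyte genes held 10 and 9.02% against 1.95, 3.57 and 5.07%. Osteocyte genes held 0.328 and 0.333% of parietal counts against 5.29, 5.11 and 2.81%, a parietal to femur ratio of 0.075, or 0.258 without Dmp1, the member with the largest share. Osteoblast and bone matrix genes held 3.34 and 3.56% against 10.1, 7.99 and 7.35%. Monocyte and macrophage genes held 1.87 and 1.66% against 0.446, 0.596 and 0.747%, and endothelial genes 0.0506 and 0.0524% against 0.104, 0.0934 and 0.113%. The 2 bones did not overlap in any of these 6 shares. The same was true of most lists, skeletal muscle and skin and hair genes among them, so it does not set these 6 apart. Their part in the gene results below was not tested. The labelled cell type is present by its markers in both bones, since Dmp1, Sost, Phex, Mepe and Fgf23 were counted in all 5 libraries. Among lists of other tissues, the skeletal muscle list (21 genes, 7 tested) held 0.00249 and 0.00337% of parietal counts against 0.00177 to 0.00202% in the femur, with Myod1 at 0 counts in every library. The neuron and brain list (18 genes, 4 tested) held 0.000765 and 0.00133% against 0.00113 to 0.00182%, and the skin and hair list (14 genes, 3 tested) 0.000713 and 0.000854% against 0.00154 to 0.00181%, with Krt15 at 0 counts throughout.

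**Figure D2:**
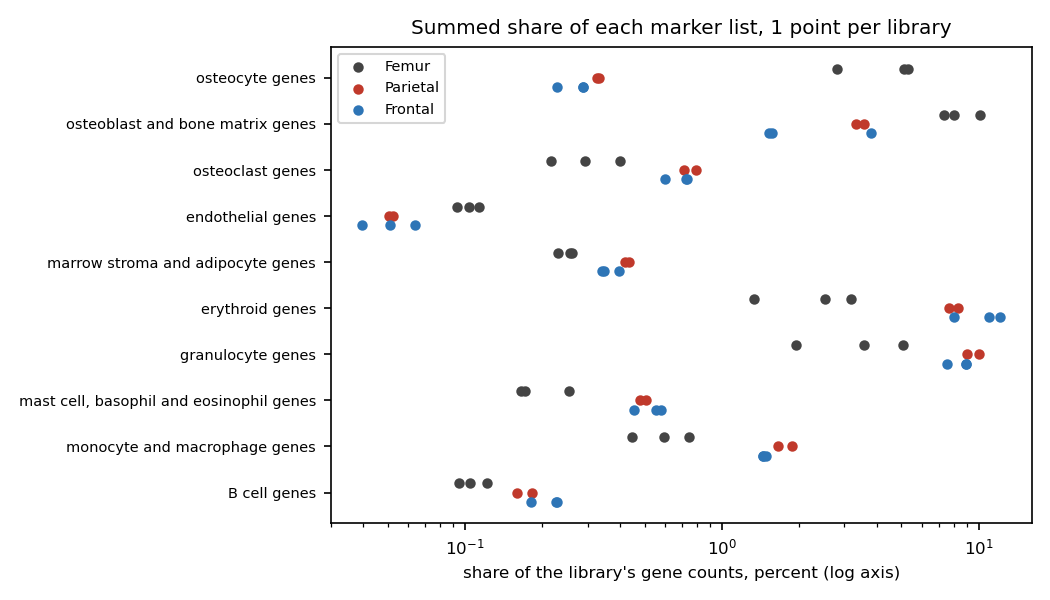
Share of each library's gene counts held by 10 lists of cell marker genes, in percent on a log axis, with 1 point per library coloured by bone. The parietal points lie left of the femur points for osteocyte, osteoblast and endothelial genes and right of them for the 7 other lists.

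Osteocyte genes were lower in the parietal bone. Of 19 tested, 16 fell, 2 rose and 1 was not called, with a median log2 fold change of -2.32. Dmp1, an acidic matrix protein that osteocytes use to control mineralization, stood at 43500, 42900 and 19500 CPM in the femur libraries and at 560 and 611 CPM in the parietal ones (log2 fold change -5.91, SE 0.43, adjusted p = 1.79e-06). The lowest femur library was far above the highest parietal one. Pdpn, a membrane protein needed for the osteocyte's processes, stood at 99.4, 76.3 and 44.5 CPM against 1.15 and 1.65 CPM (-5.72, SE 0.40, adjusted p = 1.60e-06). Sost, the secreted Wnt inhibitor sclerostin that marks mature osteocytes, stood at 252, 230 and 437 CPM against 22.6 and 21.1 CPM (-3.81, SE 0.30, adjusted p = 2.75e-06). Fam20c, the kinase that phosphorylates secreted matrix proteins, stood at 401, 371 and 373 CPM against 27.5 and 33.0 CPM (-3.66, SE 0.17, adjusted p = 4.56e-07, reaching -2.54 once the length and GC trend was removed). Pdpn, Sost and Fam20c also showed no overlap between the bones. Fbln7, a cell adhesion protein, fell by 3.16 and Ackr3, a scavenging chemokine receptor, by 3.06. Dstn, which severs actin filaments, and Capg, which caps them, rose by 0.99 and 0.72. Dstn reached 0.36 and was not called with the length and GC trend removed, and Capg was not called without parietal 2. Kcnk2, a stretch-gated potassium channel, was not called (0.77, adjusted p = 0.0521).

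Genes of phosphate handling and mineralization followed, with 13 of 15 tested members lower, 1 higher and a median of -2.32. Phex, the membrane peptidase whose loss causes phosphate wasting, stood at 715, 462 and 321 CPM in the femur and at 42.0 and 51.2 CPM in the parietal bone (-3.42, SE 0.44, adjusted p = 0.000135). Fgf23, the phosphate-lowering hormone made by osteocytes, stood at 6.53, 6.70 and 8.05 CPM against 1.68 and 3.01 CPM (-1.62, SE 0.47, adjusted p = 0.0113), and it was not called without parietal 2. Ank, a pyrophosphate exporter, fell by 2.90 and Alpl, the phosphatase that degrades pyrophosphate, by 2.64. Enpp3, a nucleotide pyrophosphatase, was the member that rose (1.41, not called without parietal 2). Smpd3, a sphingomyelinase needed for mineralization, was not called (-1.01, adjusted p = 0.142).

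The acidic matrix protein genes that sit side by side on mouse chromosome 5 did not move together. Positions are from GENCODE M21 on GRCm38. Dmp1 spans 104202613 to 104214102, Ibsp 104299171 to 104311469, Mepe 104325329 to 104338611 and Spp1 104435118 to 104441050. Mepe, which carries a mineralization-inhibiting peptide, stood at 3910, 2800 and 2700 CPM in the femur and at 629 and 624 CPM in the parietal bone (-2.32, SE 0.28, adjusted p = 3.53e-05). Spp1, osteopontin, was named after its values were seen, and stood at 37500, 31700 and 24200 CPM against 17300 and 17600 CPM (-0.83, adjusted p = 0.0226). Ibsp, bone sialoprotein, stood at 1410, 907 and 891 CPM against 1480 and 1400 CPM and was not called (0.43, SE 0.24, adjusted p = 0.15), with 1 femur library inside the parietal range. The 4 fold changes thus ran from -5.91 to 0.43.

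Osteoblast and bone matrix genes fell less uniformly. Of 28 tested, 17 fell, 1 rose and 10 were not called, with a median of -1.15. Sp7, the factor that commits cells to the osteoblast lineage, stood at 164, 123 and 116 CPM in the femur and at 18.3 and 14.9 CPM in the parietal bone (-3.01, SE 0.23, adjusted p = 2.34e-06). Creb3l1, a stress-activated factor that drives collagen secretion, fell by 3.67, and Runx2, the master factor of bone formation, by 1.25 (SE 0.19, adjusted p = 0.000161). Bgn, a matrix proteoglycan, fell by 1.63, and Atf4, a factor of amino acid import and collagen synthesis, by 0.94. Col1a1, the main chain of bone collagen, stood at 25300, 18900 and 18400 CPM against 3980 and 4270 CPM. The bones did not overlap, but Col1a1 was not called (-2.34, SE 0.99, adjusted p = 0.0863), while its frontal levels spread from 834 to 9920 CPM and enter the same estimate of spread. It was called by DESeq2 and in the fit of the 5 parietal and femur libraries alone. Bglap, osteocalcin, stood at 2070, 1540 and 1210 CPM against 1310 and 1760 CPM and overlapped (-0.07, adjusted p = 0.881). Bglap has near-identical copies, so its value is uncertain. Omd, osteomodulin, which binds hydroxyapatite, was the member that rose (1.12, SE 0.34, adjusted p = 0.0171), from 110, 72.1 and 82.3 CPM to 191 and 192 CPM. It was not called when femur 2, femur 4, parietal 2 or parietal 4 was left out, or with the length and GC trend removed (0.20).

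**Figure D3:**
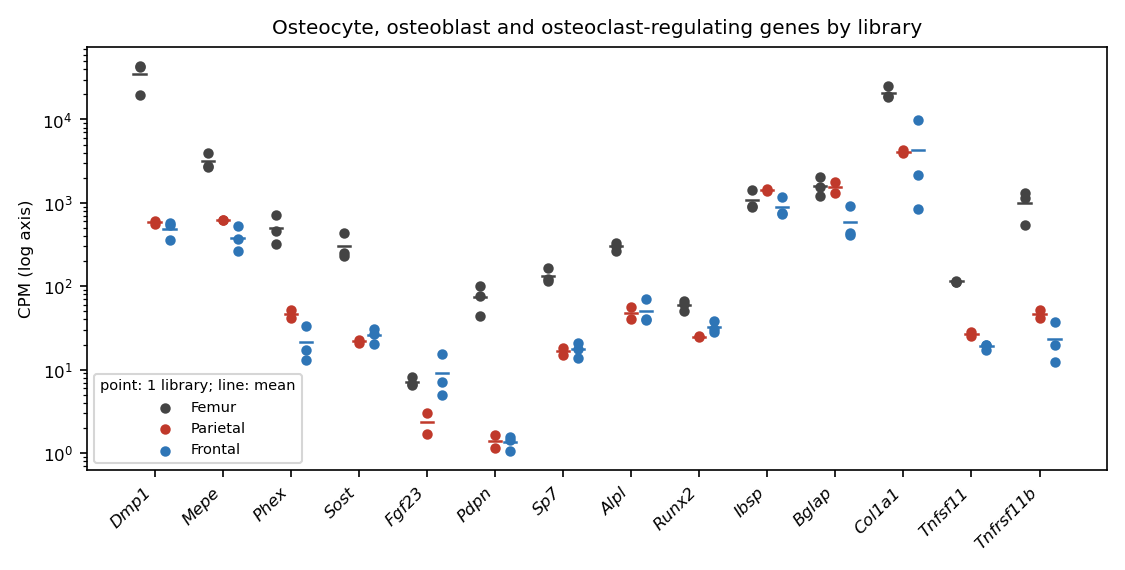
CPM of 14 genes of osteocytes, osteoblasts and osteoclast regulation on a log axis, with 1 point per library and a line at the mean of each bone. Parietal points lie below femur points except for Ibsp and Bglap.

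Most listed regulators of osteoclasts, both those that drive and those that restrain them, were lower, while several osteoclast genes were higher. Of 15 regulators tested, 10 fell and 3 rose (median -1.91). Tnfsf11, RANKL, the ligand that drives osteoclast formation, stood at 113, 112 and 117 CPM in the femur and at 25.2 and 28.2 CPM in the parietal bone (-2.09, SE 0.15, adjusted p = 1.67e-06). Tnfrsf11b, osteoprotegerin, the decoy receptor of RANKL, stood at 1330, 1140 and 547 CPM against 42.0 and 51.5 CPM (-4.43, SE 0.57, adjusted p = 0.000241). Both the ligand and its decoy were thus lower, without overlap between the bones, and the decoy fell further (-4.43 against -2.09). Csf1, the macrophage growth factor, stood at 278, 258 and 251 CPM against 70.8 and 68.8 CPM (-1.91, SE 0.17, adjusted p = 4.66e-06). Also lower were Il6 (-1.91), Lif (-3.27) and Wnt16, an osteoclast-restraining Wnt ligand of cortical bone (-5.18). The members that rose were Cxcl12, a chemokine of marrow stroma (1.36), Il34, the other ligand of the Csf1 receptor (1.61), and Il1b (0.97, not called with the length and GC trend removed). Sema3a (0.37) and Tnf (0.48) were not called.

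Among osteoclast genes, 7 of 16 rose and 2 fell (median 1.02). Ctsk, the collagen-degrading protease of osteoclasts, stood at 446, 629 and 790 CPM in the femur and at 1900 and 2010 CPM in the parietal bone (1.65, SE 0.25, adjusted p = 0.000157). Atp6v0d2, a proton pump subunit, stood at 60.9, 64.2 and 105 CPM against 280 and 329 CPM (1.99, SE 0.26, adjusted p = 7.07e-05). Dcstamp, which drives osteoclast fusion, rose by 1.83 and Ostm1, a lysosomal chloride channel subunit, by 1.25. Car2 rose by 2.32. Red cell precursors also make it, and their list was higher in the same libraries, but their part was not tested. Nfatc1, the master factor of osteoclast formation, moved the other way, from 418, 364 and 259 CPM to 41.5 and 51.4 CPM (-2.90, SE 0.22, adjusted p = 2.48e-06). Itgb3, an integrin of osteoclasts and platelets, fell by 1.29. Mmp9 and Tcirg1, a protease and a proton pump subunit, were not called (0.00 and -0.39).

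Wnt signals drive bone formation, and both their activators and their inhibitors were lower in the parietal bone. Of 29 ligands, receptors and R-spondins tested, 23 fell and 2 rose (median -1.78). Wnt1, a ligand whose loss causes fragile bone, stood at 59.3, 72.7 and 47.8 CPM in the femur and at 1.68 and 2.91 CPM in the parietal bone (-4.72, SE 0.39, adjusted p = 3.33e-06). Wnt5b stood at 255, 198 and 157 CPM against 3.36 and 3.69 CPM (-5.85, SE 0.33, adjusted p = 7.72e-07). Lgr6, an R-spondin receptor, stood at 145, 122 and 93.6 CPM against 2.60 and 3.01 CPM (-5.42, SE 0.31, adjusted p = 7.72e-07). The bones did not overlap for these 3. Fzd7, a Wnt receptor, fell by 3.14 and Wnt11 by 3.21 (-3.92 without parietal 2). Against the list, Rspo2 went from 1.38, 1.04 and 0.933 CPM to 14.2 and 7.57 CPM (3.31, SE 0.43, adjusted p = 5.67e-05) and Lgr5, another R-spondin receptor, rose by 1.29. Rspo3 and Wnt4 were not called (-0.10 and 0.35). Of 16 antagonists tested, 11 fell and 1 rose (median -1.94). Sfrp4, which sequesters Wnt ligands, fell by 2.58 from 470, 475 and 416 CPM to 67.8 and 83.6 CPM. Beside it fell Dkk1, which blocks the Lrp co-receptors (-2.09), Kremen1, its partner (-2.67), Znrf3, which removes Wnt receptors from the membrane (-2.39), and Apcdd1 (-2.24, and -2.82 without parietal 2). Dkkl1 rose by 1.61 from under 1 CPM. Of 17 Wnt target genes tested, 0 rose and 10 fell (median -1.01), among them Irx3 (-3.76), Ccn4 (-3.06), Cd44 (-2.65), Tcf7 (-2.20) and Myc (-1.81). But 3 targets rose with the length and GC trend removed, and 1 did when some single libraries were left out.

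Ligands, receptors and antagonists of the BMP and TGF-beta pathways fell in 30 of 37 tested and rose in 0 (median -1.45). Bmp2, a bone-inducing ligand, stood at 811, 696 and 527 CPM in the femur and at 30.0 and 26.5 CPM in the parietal bone (-4.58, SE 0.27, adjusted p = 9.58e-07). Bmp8a stood at 445, 397 and 223 CPM against 8.49 and 9.41 CPM (-5.31, SE 0.32, adjusted p = 9.58e-07). Bmp7 (-3.91) and the type I receptor gene Acvr1 (-3.28) fell as well. The proteins that hold TGF-beta latent in the matrix were lower as well, with Ltbp3 at -4.48 and Ltbp1 at -3.55. Fstl1 and Chrdl1, a follistatin-like protein and a BMP antagonist, were not called (0.26 and -0.45). Of 15 targets of these pathways, 12 fell (median -1.58), among them the inhibitor Smad7 (-2.97) and including Id3 (-1.95), Id4 (-1.99), Id1 (-1.58) and Ccn2 (-1.63). Id2 and Tgfbi were not called (-0.04 and -0.03). Ligands, receptors and targets were thus lower side by side.

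FGF genes fell in 14 of 17 tested (median -1.78). Beside Fgf1, Fgfr1, the receptor through which osteocyte FGF23 production is controlled, stood at 429, 379 and 337 CPM in the femur and at 28.0 and 34.5 CPM in the parietal bone (-3.61, SE 0.22, adjusted p = 1.01e-06). Feedback genes that FGF signalling induces were lower too, with Dusp6 at -2.67, Spred1 at -3.25, Spry4 at -3.00 and the factor Etv5 at -2.63. Fgfr2 overlapped between the bones (0.07, adjusted p = 0.806). Hedgehog genes fell in 10 of 14 (median -1.68), among them the co-receptor Boc (-3.45), the ligand Ihh of growing cartilage (-2.90, and -3.55 without parietal 2), the receptor and target Ptch1 (-1.38) and the factor Gli3 (-2.19). With the length and GC trend removed the Hedgehog median was -0.83 and 6 members fell. Notch genes fell in 11 of 17 (median -1.58, and -0.86 with that trend removed), with the ligands Jag2 (-3.16), Jag1 (-2.38) and Dll4 (-2.35), the receptors Notch4 (-2.64) and Notch2 (-1.58) and the target Hes1 (-1.99). Lfng and Mfng, enzymes that modify Notch, were not called (0.47 and -0.23).

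The IGF axis was divided. Of 15 tested, 6 fell, 1 rose and 8 were not called (median -0.55). With the length and GC trend removed 6 fell and 4 rose (median -0.35), and Igf1r reached -0.80. Igfbp3, the main serum binding protein of IGFs, stood at 286, 210 and 257 CPM in the femur and at 27.7 and 30.3 CPM in the parietal bone (-3.11, SE 0.19, adjusted p = 1.09e-06). The receptor gene Igf1r stood at 20.5, 22.4 and 22.9 CPM against 7.42 and 7.95 CPM (-1.51, SE 0.20, adjusted p = 5.85e-05). Its ligand Igf1 moved the other way, from 26.1, 29.9 and 30.2 CPM to 47.2 and 51.7 CPM (0.78, SE 0.16, adjusted p = 0.00177). Irs2, an adaptor of the receptor, fell by 2.17, and Igfbp4 and Igfbp7 were not called (0.69 and -0.55).

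Mechanosensing genes fell in 24 of 29 tested, with 1 higher (median -1.74, reaching -1.02 once the length and GC trend was removed). Piezo1, the ion channel that opens under membrane tension, stood at 264, 209 and 182 CPM in the femur and at 12.2 and 16.6 CPM in the parietal bone (-3.93, SE 0.26, adjusted p = 1.32e-06, and -2.53 with that trend removed). Gja1, connexin 43 of the osteocyte network, stood at 3950, 3120 and 2440 CPM against 406 and 416 CPM (-2.95, SE 0.27, adjusted p = 5.60e-06). Amotl2, a target and inhibitor of YAP whose promoter is printed above, stood at 423, 360 and 286 CPM against 21.9 and 27.8 CPM (-3.84, SE 0.23, adjusted p = 9.58e-07). The Hippo effectors Wwtr1 (-2.65) and Yap1 (-2.54) and the fibronectin receptor chain Itga5 (-2.30) fell with them. Panx3, a channel of bone-forming cells, rose from 1.2, 1.04 and 0.583 CPM to 3.82 and 4.46 CPM (2.14, SE 0.46, adjusted p = 0.00200). Genes of osteocyte processes and actin were mixed, with 10 of 22 lower and 5 higher (median -0.12). Mmp14, the membrane protease that opens the matrix for processes, fell by 2.48, and the actin proteins Actn4, Myo10, Fscn1 and Msn by 2.58, 2.23, 2.19 and 1.39. Myl9, a myosin light chain, and Cnn2, calponin, rose by 1.5 and 0.87, the latter not called without parietal 2, and Cfl1 and Lcp1 were not called.

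Of 41 Hox genes, which set position along the body and limb, 8 passed the filter on low counts, 7 of these fell and 0 rose. A gene with parietal counts near 0 could pass that filter only through another bone, so this count does not describe the 41. Among those too low to be tested, Hoxb4 held 17 counts in the parietal bone and 19 in the femur, Hoxb2 9 and 10, and Hoxb5 7 and 5, while Hoxc8 held 6 and 29. The choice of these 4 names was made after seeing their counts. Hoxa10, a factor of the hindlimb, held 43, 114 and 89 counts in the femur libraries and 1 in each parietal one, a femur level 111-fold higher relative to the library totals (95% interval 30.5 to 925). Its neighbour Hoxa9 fell by 2.29, from 6.02, 6.70 and 4.90 CPM to 1.22 and 1.16 CPM (SE 0.37, adjusted p = 0.000264). Within the HoxC cluster on chromosome 15, Hoxc10 held 115 counts in the femur and 0 in the parietal bone (at least 34.7-fold higher in the femur), Hoxc9 84 against 2 (38.0-fold, 10.2 to 319) and Hoxc6 51 against 0 (at least 15.4-fold). Hoxa5 fell by 3.17 (-3.95 without parietal 2), and Hoxd8 was not called (-1.40, adjusted p = 0.0965). The frontal bone held 2, 2, 0 and 0 counts of Hoxa10, Hoxc10, Hoxc9 and Hoxc6, so these genes were near 0 in both skull bones.

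Limb patterning genes fell in 11 of 20 tested and rose in 2 (median -0.78). Shox2, which shapes the upper limb segment, stood at 36.6, 40.4 and 25.2 CPM in the femur and at 1.22 and 2.91 CPM in the parietal bone (-4.07, SE 0.38, adjusted p = 6.39e-06, and -4.83 without parietal 4). Irx5 and Irx3, homeobox factors of limb and heart, fell (-3.26 and -3.76), as did Tbx15 (-2.34), Tbx3 (-5.38, and -9.47 to -4.30 with 1 parietal library left out) and Tbx18 (-4.44, and -5.53 to -3.76). Pitx1, the factor that sets hindlimb identity, was too low to be tested and was named after its values were seen. It held 24 counts in the femur against 1 (21.7-fold higher, 3.55 to 894). Among 25 tested genes of cranial patterning, 5 rose and 12 fell (median -0.83), and 3 rose when any 1 library was left out. The members that rose included En1, which positions the skull vault and its sutures, from 0.172, 0.189 and 0.117 CPM to 1.99 and 1.65 CPM (3.41, SE 0.54, adjusted p = 0.000252). Alx4, whose loss leaves openings in the parietal bones, went from 1.2, 2.27 and 0.817 CPM to 4.43 and 4.46 CPM (1.58, SE 0.44, adjusted p = 0.00923). Both parietal libraries lay above all femur libraries for these genes. Zic1, a factor of dorsal neural and suture cells, held 36 counts against 2 in the femur (19.9-fold higher, 5.12 to 170), and Zic4 30 against 3 (11-fold, 3.43 to 56.5). The fitted value of Zic1 was 4.09, and 6.83 without femur 2. The members that fell included Dlx3 (-4.36), Foxc2 (-2.83), Efnb1 (-2.62), Sox9 (-2.25) and Ets1 (-1.01). Twist1, a suture factor, was not called (-0.60, adjusted p = 0.0505), nor was Tcf12 (0.00).

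**Figure D4:**
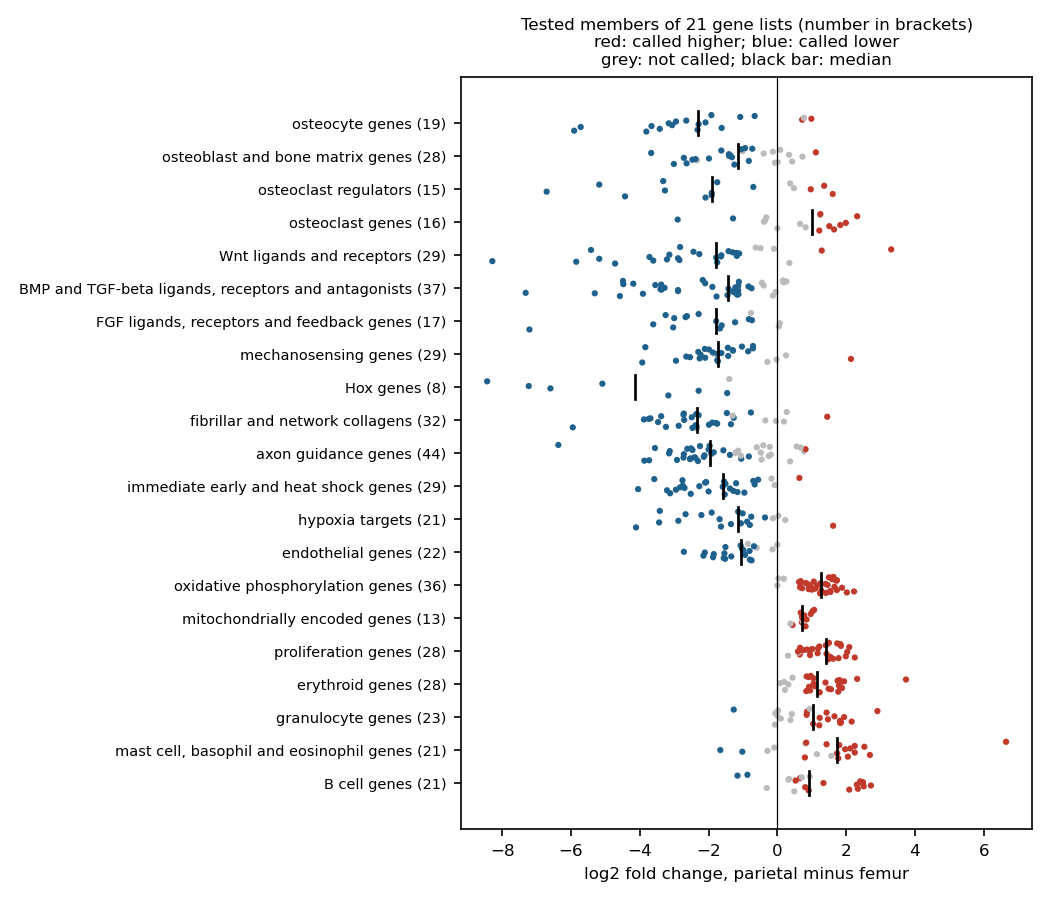
Log2 fold change, parietal minus femur, of each tested member of 21 gene lists, with the number tested in brackets and a black bar at the median. Red members were called higher, blue ones lower and grey ones not called. The 8 Hox genes drawn are those that passed the filter on low counts. The medians of the bone, signalling, matrix, stress and vessel lists lie left of 0, those of the osteoclast, mitochondrial, proliferation and blood lists lie right of it, and the mitochondrially encoded list turns to a median of -0.55 with the length and GC trend removed.

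Collagen genes held 0.843 and 0.885% of parietal counts against 5.33, 3.98 and 4.02% in the femur, and 25 of 32 tested fell while 1 rose (median -2.34, and -1.15 with 19 lower when the length and GC trend was removed). Col5a1, which sets fibril diameter, stood at 227, 165 and 194 CPM in the femur and at 39.7 and 35.4 CPM in the parietal bone (-2.38, SE 0.25, adjusted p = 1.35e-05, and -1.11 with that trend removed). The beaded-filament chains Col6a1, Col6a2 and Col6a3 fell by 1.75, 1.78 and 1.89, and the basement membrane chain Col4a2 by 2.87. Col14a1, a fibril-associated collagen of fibroblasts, rose by 1.45 (not called without parietal 4), and Col8a1 was not called (0.19). Col10a1, the collagen of hypertrophic cartilage, named after its values were seen, held 48 counts in the femur against 3 (14.5-fold higher, 4.67 to 72.7). Cartilage genes fell in 11 of 18 (median -1.74), and in 7 with that trend removed. Col2a1, the main cartilage collagen, stood at 788, 650 and 232 CPM against 6.96 and 11.2 CPM (-5.95, SE 0.82, adjusted p = 0.00079). Col11a1 (-3.74) and Chad, a cartilage matrix protein (-5.55, and -4.52 without femur 4), fell too. Scrg1 rose by 2.13 and Sox6, which red cell precursors also use, by 0.80 (not called without either parietal library).

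Proteases and their inhibitors fell in 22 of 37 tested and rose in 2 (median -1.3). Timp2, a protease inhibitor, stood at 1310, 1260 and 998 CPM in the femur and at 193 and 205 CPM in the parietal bone (-2.58, SE 0.17, adjusted p = 1.22e-06). The aggrecanases Adamts1 and Adamts4 fell by 2.53 and 1.76, and Mmp12 by 2.84. Mmp13, the collagenase of bone and cartilage, overlapped (0.12, adjusted p = 0.65). Mmp8, the collagenase of neutrophils, rose by 1.66, in libraries where neutrophil genes were also higher, and was not called with the length and GC trend removed. Timp4 rose by 1.55 and was not called when femur 2, femur 4, parietal 2 or parietal 4 was left out. Small leucine-rich proteoglycans did not share a direction, with 4 of 11 lower, 2 higher and a median of -0.04. Ogn, osteoglycin, stood at 48.5, 44.8 and 30.8 CPM against 190 and 168 CPM (2.12, SE 0.25, adjusted p = 3.45e-05, and 1.3 with that trend removed). Dcn and Lum, decorin and lumican, were not called (0.08 and 0.49). Fmod, fibromodulin of tendon, fell by 3.32 and Aspn, asporin, by 2.07 (not called without parietal 4). Of 17 periosteum, tendon and suture genes, 8 fell and 4 rose (median -0.77). Thbs4, a tendon matrix protein, stood at 56.0, 59.0 and 43.1 CPM against 0.917 and 0.582 CPM (-6.08, SE 0.41, adjusted p = 1.57e-06), and its relative Thbs2 fell by 2.74. Tnmd, tenomodulin, rose from 10.3, 5 and 5.13 CPM to 17.4 and 21.2 CPM (1.54, SE 0.41, adjusted p = 0.00764) and was not called without parietal 4. Cilp2, a cartilage and tendon matrix protein too low to be tested, held 20 counts in the femur and 0 in the parietal bone (at least 6.04-fold higher in the femur). Gdf5, a BMP family ligand of joints, showed the same pattern, with 11 against 0 (at least 3.32-fold).

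Guidance genes for nerves and vessels fell in 28 of 44 tested and rose in 1 (median -1.94, reaching -1.03 once the length and GC trend was removed). Epha2, an ephrin receptor, stood at 159, 119 and 102 CPM in the femur and at 11.8 and 9.51 CPM in the parietal bone, without overlap (-3.56, SE 0.25, adjusted p = 1.59e-06). Also lower were Nrp2, a receptor of semaphorins and VEGF (-2.72), the semaphorins Sema6d (-2.73) and Sema4c (-2.54) and the ephrin Efna1 (-2.47). Efna5 rose by 0.82 but was not called in 8 alternatives, and Nrp1 was not called (-0.19). Endothelial genes fell in 18 of 22, and 0 rose (median -1.05). Robo4 stood at 28.0, 32.5 and 32.9 CPM against 8.94 and 8.34 CPM (-1.85, SE 0.19, adjusted p = 1.24e-05), and the receptors Flt1 and Tie1 fell by 1.56 and 2.15. Cspg4, a proteoglycan of pericytes that other mesenchymal cells also make, stood at 327, 273 and 181 CPM against 7.26 and 6.98 CPM (-5.19, SE 0.32, adjusted p = 1.05e-06). In that list of pericyte and smooth muscle genes 7 of 12 fell and 2 rose, namely Acta2 (0.86, not called without femur 1 or parietal 2) and Mylk (0.60, not called without femur 2 or parietal 2). Retinoid genes fell in 7 of 17 and rose in 4 (median -1.12, reaching -0.16 once the length and GC trend was removed). The enzymes that make retinoic acid went opposite ways. Aldh1a3 stood at 25.3, 22.3 and 15.1 CPM against 0.229 and 0.194 CPM (-6.52, SE 0.45, adjusted p = 1.59e-06), while Aldh1a1 stood at 9.63, 15.1 and 17.0 CPM against 64.0 and 65.7 CPM (2.20, SE 0.21, adjusted p = 7.78e-06).

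Immediate early and heat shock genes, which respond within minutes to load, injury or handling, were lower in 26 of 29 tested, with 1 higher (median -1.59). Bag3, a co-chaperone, stood at 204, 164 and 179 CPM in the femur and at 15.4 and 15.1 CPM in the parietal bone (-3.58, SE 0.19, adjusted p = 6.57e-07). Fosb stood at 217, 156 and 186 CPM against 29.3 and 35.5 CPM (-2.52, SE 0.18, adjusted p = 1.73e-06, reaching -1.58 once the length and GC trend was removed). Egr1 fell by 3.21, Fosl1 by 3.12, Egr2 by 2.95 and Ier3 by 2.70. The bones did not overlap for any of these 6. Hspe1, a mitochondrial chaperone, rose by 0.64 but was not called without parietal 4 and turned to -0.15 with the trend removed, and its partner Hspd1 was not called (-0.17).

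Hypoxia targets were lower in 17 of 21 tested, with 1 higher (median -1.14). Vegfa, the vessel growth factor, stood at 1570, 1330 and 829 CPM in the femur and at 70.6 and 72.9 CPM in the parietal bone (-4.11, SE 0.28, adjusted p = 1.57e-06). Adm, adrenomedullin, fell by 3.44, Ndrg1 by 2.88, the collagen prolyl hydroxylases P4ha2 and P4ha1 by 2.67 and 2.21, and the glucose transporter Slc2a1 by 1.64. Car9, a carbonic anhydrase of hypoxic cells, rose from 1.03, 1.51 and 2.10 CPM to 4.66 and 5.14 CPM (1.62, SE 0.32, adjusted p = 0.00125). Ldha, lactate dehydrogenase, overlapped (-0.13, adjusted p = 0.512).

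Respiratory chain genes were higher. Of 36 nuclear genes of oxidative phosphorylation, 33 rose and 0 fell (median 1.27, and 0.92 with 28 higher when the length and GC trend was removed). They held 0.984 and 0.995% of parietal counts against 0.435, 0.460 and 0.507% in the femur. Ndufb3, a complex I subunit, stood at 24.6, 30.7 and 32.2 CPM in the femur and at 132 and 141 CPM in the parietal bone (2.23, SE 0.15, adjusted p = 1.36e-06, and 1.12 with that trend removed). Cox6c, a subunit of cytochrome oxidase, stood at 164, 174 and 180 CPM against 572 and 573 CPM (1.73, SE 0.12, adjusted p = 1.73e-06). Sdhb of complex II rose by 1.66. The catalytic ATP synthase chains Atp5b and Atp5a1 were not called (0.03 and 0.19). Of the 13 genes encoded by mitochondrial DNA, 11 rose and 0 fell (median 0.73), but with the length and GC trend removed 0 rose and 7 fell (median -0.55). mt-Nd1 stood at 876, 677 and 677 CPM against 1360 and 1260 CPM (0.82, SE 0.16, adjusted p = 0.00104, turning to -0.55), and mt-Co3 at 219, 138 and 171 CPM against 366 and 321 CPM (0.97, SE 0.19, adjusted p = 0.00109, turning to -0.43). mt-Atp6 and mt-Atp8 (1.02 and 1.07) turned to -0.46 and -0.48. mt-Nd5 and mt-Nd6 (0.85 and 0.73) were not called without parietal 2 and turned to -0.20 and -0.80. With 1 library left out, between 4 and 13 of these genes rose.

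Proliferation genes were higher in 26 of 28 tested, and 0 were lower (median 1.42). Ccnb1, the cyclin of mitosis, stood at 40.2, 47.3 and 45.4 CPM in the femur and at 210 and 212 CPM in the parietal bone (2.25, SE 0.16, adjusted p = 1.73e-06). Tyms, which makes thymidylate, rose by 2.09, Cdk1 by 1.99, Tk1 by 1.85, Ccne2 by 1.84 and the replication helicase gene Mcm6 by 1.18. Cdc20 and Plk1, genes of mitotic exit and entry, were not called (0.61 and 0.31). Both were called higher with the length and GC trend removed, and Cdc20 also by DESeq2 and limma-voom. Red and white cell precursors proliferate in marrow, and their lists were higher in the same libraries, but their part in these values was not tested.

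Erythroid genes rose in 23 of 28 tested, with 0 lower (median 1.16). Hbb-bs, adult beta globin, stood at 6180, 11500 and 14200 CPM in the femur and at 38400 and 39700 CPM in the parietal bone (1.88, SE 0.31, adjusted p = 0.000354, reaching 1.16 once the length and GC trend was removed). Globin genes have near-identical copies, so their single values are uncertain. Urod, an enzyme of heme synthesis, rose by 1.79. The anion exchanger Slc4a1 and the factor Nfe2 were not called (0.32 and 0.22). Granulocyte genes rose in 14 of 23, with 1 lower (median 1.04). S100a8, an abundant neutrophil protein, stood at 3750, 6340 and 8130 CPM against 28700 and 25600 CPM (2.16, SE 0.29, adjusted p = 6.96e-05, and 0.97 with that trend removed). The early granule genes Ctsg and Ms4a3 rose by 1.83 and 1.85 (1.22 and 0.88 with it removed), and Ly6g, of a family with near-identical copies, by 2.91 (2.11). Ngp and Ltf, genes of later granules, overlapped (0.38 and 0.10). Gfi1, a factor of granulocyte precursors, fell by 1.27.

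Mast cell, basophil and eosinophil genes rose in 14 of 21 and fell in 2 (median 1.74, reaching 1.00 once the length and GC trend was removed). Cpa3, a mast cell protease, stood at 15.5, 16 and 15.4 CPM in the femur and at 63.7 and 65.8 CPM in the parietal bone (2.05, SE 0.14, adjusted p = 1.60e-06, and 1.00 with that trend removed). Prg2, the eosinophil major basic protein, rose by 1.97 and the eosinophil ribonuclease Ear1 by 2.53 (1.35 with it removed). Mrgprb1, a receptor of connective tissue mast cells, held 0 counts in the femur libraries and 15 and 16 in the parietal ones, at least 11.4-fold higher. Tpsab1, a mast cell tryptase too low to be tested, had the opposite order, with 8, 4 and 4 counts in the femur libraries and 0 in both parietal ones, a femur level at least 4.83-fold higher. Kit, the receptor of mast cells and early precursors, fell by 1.66, as did Gata2 (-1.02), which was not called without parietal 2 and turned to 0.04 with the trend removed. The share of this list was 2.5 times that of the femur, and 1.5 times without Prg2.

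Among monocyte and macrophage genes 11 of 23 rose and 4 fell (median 0.54). Ccr2, the chemokine receptor of inflammatory monocytes, stood at 59.5, 66.1 and 71.1 CPM in the femur and at 233 and 251 CPM in the parietal bone (1.88, SE 0.16, adjusted p = 4.60e-06). Lyz2, lysozyme, rose by 1.99 (1.33 with the length and GC trend removed), Ly6c2 by 1.91, Cd163, a scavenger receptor of resident macrophages, by 1.87 and C1qc, a complement chain of macrophages, by 1.2. Mertk, which takes up dying cells, fell by 1.64, and Csf1r was not called (0.01). B cell genes rose in 13 of 21 and fell in 2 (median 0.91). The surrogate light chain genes Igll1 and Vpreb1 of early B cells rose by 2.49 and 2.51, and Dntt, which adds bases at receptor joins, by 2.41. Sdc1 and Xbp1, genes of plasma cells that bone cells also make, fell by 1.16 and 0.87. T and NK cell genes rose in 10 of 21 and fell in 2 (median 0.81), and those that rose included the natural killer genes Klrb1c (3.32) and Ncr1 (2.75) and the granzyme gene Gzma (2.24). Trac and Cd4 of T cells were not called (0.74 and -0.19). Platelet genes were mixed, with 4 of 17 higher and 4 lower (median -0.05). These counts were 3 to 7 higher and 1 to 5 lower with 1 library left out, and 4 and 1 under the replicate block. Clec1b and Ppbp rose by 1.94 and 1.48 (Ppbp not called with the length and GC trend removed, 0.31) and Itgb3 fell by 1.29. The background for these marrow lists was 27.1% of all genes called higher and 28.6% called lower. The platelet list lay slightly below it in both directions.

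Marrow stroma and adipocyte genes rose in 8 of 16 and fell in 2 (median 0.70), with 4 to 8 higher when 1 library was left out. Cxcl12, the chemokine that holds blood precursors in marrow, stood at 706, 559 and 699 CPM in the femur and at 1750 and 1620 CPM in the parietal bone (1.36, SE 0.16, adjusted p = 2.44e-05). Adipoq, the fat hormone adiponectin that stromal cells also express, rose from 39.0, 34.1 and 24.0 CPM to 79.7 and 69.7 CPM (1.21, SE 0.22, adjusted p = 0.000587), but was not called with the length and GC trend removed (0.52). Lpl, a lipase of fat and stromal cells, rose by 0.77 and Pparg, a factor of fat cell formation, by 0.98 (not called without parietal 2). Cfd, adipsin, stood at 46.4, 27.8 and 8.05 CPM against 0.917 and 4.37 CPM (-3.41, SE 0.90, adjusted p = 0.0124, -2.66 and not called without parietal 2, and -4.91 without parietal 4). Cfd was also not called under the replicate block or without the filter on low counts. Cidec, a lipid droplet protein, held 44 counts in the femur against 2 (19.9-fold higher in the femur, 5.20 to 170). Among meningeal and dural genes 7 of 16 rose and 4 fell (median 0.52). Dpp4, a peptidase of fibroblasts and lymphocytes, stood at 16.7, 17.1 and 17.4 CPM against 63.7 and 57.7 CPM (1.83, SE 0.17, adjusted p = 6.50e-06), and Slc6a13, a transporter of the meninges, rose by 1.61, while Foxc1, which meninges and skull vault need, fell by 1.66.

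Interferon-stimulated genes were mixed, with 6 of 20 higher and 4 lower (median -0.22), and 3 to 5 higher and 1 to 6 lower when 1 library was left out. Ifi27l2a rose from 16.3, 20.0 and 29.5 CPM to 103 and 132 CPM (2.41, SE 0.23, adjusted p = 8.21e-06), and Stat2, a factor of the interferon response, fell by 1.03. Hormone receptor genes were mostly not called, with 2 of 23 higher and 6 lower (median -0.36), and 2 to 5 lower when 1 library was left out. Vdr, the vitamin D receptor, stood at 82.2, 78.7 and 76.0 CPM against 44.3 and 50.7 CPM (-0.73, SE 0.16, adjusted p = 0.00213, not called with the length and GC trend removed). Ramp1, a subunit of the CGRP receptor, rose by 0.97.

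The parietal bone was then set against the frontal bone, to show where the skull bones differed from each other. Here 1118 genes were called (7.21%), 511 higher in the parietal bone (3.29%) and 607 lower (3.91%). These counts rest on few libraries. They were 0 in edgeR's test when parietal 2, parietal 4 or frontal 1 was left out (3165, 2520 and 3061 genes at an unadjusted p under 0.05, against 4460 with all libraries), 518 without frontal 4 and 1963 without frontal 2. Both this comparison and the one with the femur use the same 2 parietal libraries. For the lists above, the median parietal minus frontal value was 0.26 for osteocyte genes and 0.18 for collagens, against 0.024 for all genes.

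Matrix and resorption genes were among those higher in the parietal than in the frontal bone. Ogn stood at 190 and 168 CPM in the parietal libraries and at 55.2, 105 and 67.8 CPM in frontal 1, 2 and 4 (parietal minus frontal log2 fold change 1.23, adjusted p = 0.0295). Omd stood at 191 and 192 CPM against 36, 100 and 47.6 CPM (1.64, adjusted p = 0.0321, reaching 1.05 once the length and GC trend was removed), Dcn at 1080 and 1150 CPM against 321, 697 and 450 CPM (1.19, adjusted p = 0.0401), and Lum at 1260 and 1160 CPM against 294, 727 and 449 CPM (1.3, adjusted p = 0.0318). The parietal libraries lay above every frontal one for all 4. The share of all genes separated in this way was not counted for these 2 bones, so this adds nothing to the calls. Of 11 small leucine-rich proteoglycans tested these were the 4 called, all higher. Ctsk and Atp6v0d2 of osteoclasts were higher by 0.97 and 1.07, and Bglap, with its uncertain copies, by 1.37. Of 28 osteoblast and bone matrix genes, 6 were higher.

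Mitochondrial genes were also among those that differed. Of the 13 genes of mitochondrial DNA, 10 were higher (median 0.87), with mt-Co3 at 366 and 321 CPM against 172, 200 and 150 CPM (0.98, adjusted p = 0.0281, and 0.25 with that trend removed). Of 36 nuclear genes of oxidative phosphorylation, 10 were higher (median 0.36), with Cox6c at 572 and 573 CPM against 332, 345 and 368 CPM (0.72, adjusted p = 0.0272). With the length and GC trend removed, 87 genes in all were called between these bones. Proliferation genes differed in the opposite direction, 6 of 28 being lower than in the frontal bone (median -0.43), among them Plk1 at 27.7 and 22.3 CPM against 44.9, 46.1 and 40.9 CPM (-0.81, adjusted p = 0.0324). Erythroid genes were lower in 4 of 28 (median -0.54), and their share of counts was 7.64 and 8.30% in the parietal bone against 11, 8.03 and 12.1% in the frontal bone.

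The 8 largest differences each way between the skull bones were taken under the same limit of 5 CPM in the higher bone. Mrgprb1 (3.92) and Shox2 (2.35) were also called higher but lay below that limit. Xlr, of a family of near-identical copies on the X chromosome, was higher in the parietal bone by 2.52. The other increases under the limit were Rpl39l (1.94), Kctd12b (1.80), Dpyd (1.76), the prostaglandin receptor Ptgfr (1.74), Pik3r3 (1.73), Abca8a (1.71) and the kinase Frk (1.67). Lower were Fgf23 and Carmil2 (each -1.98), the nuclear RNA Neat1 (-1.81), Arhgap33 (-1.78), Tchp (-1.68), the erythroid factor Gfi1b (-1.67), the glucose transporter Slc2a4 (-1.58) and the chloride channel Clcn2 (-1.55). Without frontal 2 the values of Xlr, Rpl39l and Dpyd were 3.29, 2.63 and 2.35, without parietal 2 those of Carmil2 and Tchp were -3.38 and -2.45, and Carmil2 reached -1.39 without parietal 4. Fgf23 stood at 1.68 and 3.01 CPM in the parietal bone against 15.3, 7.17 and 4.91 CPM in the frontal bone (adjusted p = 0.0361), so its parietal level was below every library of both other bones. Neat1, which builds nuclear paraspeckles, stood at 94.9 and 105 CPM against 436, 181 and 436 CPM in the frontal bone and 471, 389 and 259 CPM in the femur (-1.90 against the femur, adjusted p = 0.00138).

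**Figure D5:**
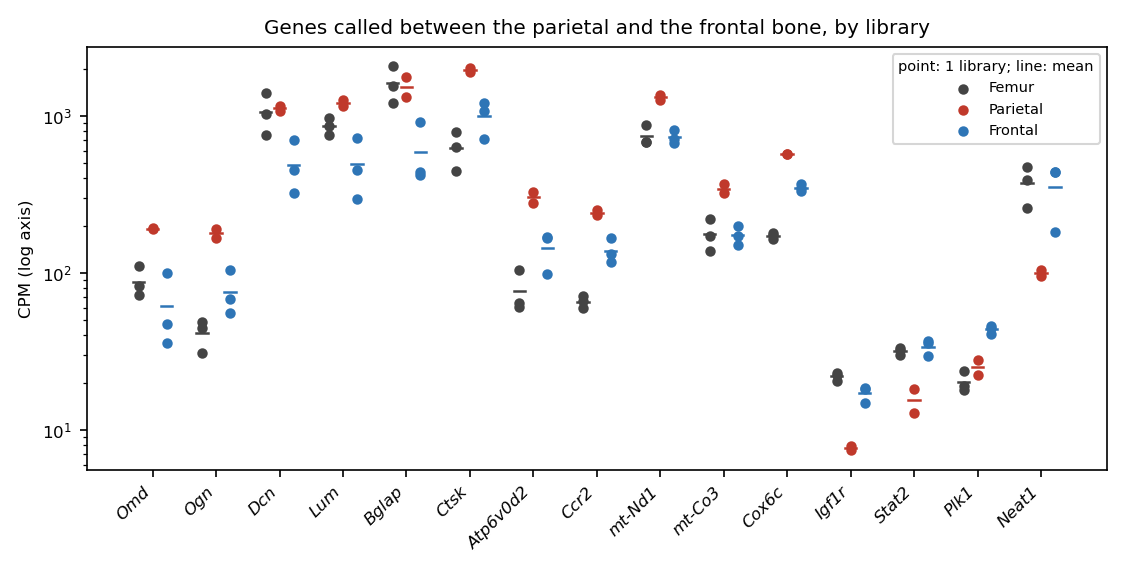
CPM of 15 genes called between the parietal and frontal bones on a log axis, with 1 point per library and a line at the mean of each bone. The 2 parietal points lie above all frontal points from Omd to Cox6c and below them from Igf1r to Neat1.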

How the data were processed

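RNA sequencing counts per gene were analysed from 8 mouse bone libraries, as deposited by the authors in 1 table of 43438 rows (43346 genes and 92 spike-in controls). Per the submitters' processing notes, alignment used STAR 2.5.2a, and both GRCm38.p3 and mm10 appear there as builds. For the counter, strand setting and annotation the sources used here give nothing, so reads of overlapping or antisense genes cannot be told apart, and genes with near-identical copies are uncertain. Ensembl IDs were matched to symbols and positions in GENCODE M21 on GRCm38 (42462 matched). In the main fit neither library sizes nor tests used the spike-in rows, which entered only the spike-in scaling. Genes passing edgeR's default filter (15511) were scaled by TMM and fitted with edgeR 4.0.16 in R 4.3.3 (robust quasi-likelihood, 1 mean per bone, all 8 libraries, 5 residual degrees of freedom), with Benjamini-Hochberg adjustment. The biological coefficient of variation was 18.6%. Library totals limit precision only for genes with few counts, whose ratios carry exact 95% intervals, or a floor of 3 counts where a bone had 0. These intervals cover counting error only. Libraries of a bone differed by more than sampling noise (a chi-square of at least 7.67 for each degree of freedom), so each was counted as 1 replicate. Alternatives were DESeq2 1.42.0, limma-voom (limma 3.58.1), other filters, scalings, library sets and a trend over length and GC content, which covered 99.5% of genes. The procedure was tested on simulated data. The gene lists and the genes named were chosen with earlier results of these data known. Named were the 12 largest called changes each way at 5 CPM or more in the higher bone without overlap, 10 bone genes, per list the 6 smallest p-values, up to 3 called against the list and 2 not called, members with 0 counts in 1 bone, and the 8 largest differences each way between the skull bones. Other genes are said to be named after their values were seen. Some genes that this rule names are not reported here.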

Additional observations from a re-analysis of the deposited data

Results flagged for a closer look

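The genes below differed between the parietal and frontal bones in edgeR's quasi-likelihood test of that difference, although both are bones of the skull vault. Values are parietal minus frontal log2 fold changes, with adjusted p from 0.0272 to 0.0492. Each missed the call in 5 to 12 of 16 alternatives, the fits without parietal 2, parietal 4 or frontal 1 among them. Bone and matrix genes that differed were Bglap (1.37), Omd (1.64), Ogn (1.23), Dcn (1.19), Lum (1.3), Panx3 (1.69), Ackr3 (0.77) and Fgf23 (-1.98). Osteoclast, cytokine and growth factor genes that differed were Ctsk (0.97), Atp6v0d2 (1.07), Il6 (0.66), Id1 (0.72), Igf1 (0.72) and Igf1r (-1.16). Blood and immune cell genes that differed were Ccr2 (0.81), Stat2 (-1.12), Tac2 (-0.96), Gfi1b (-1.67) and Mrgprb1 (3.92). Mitochondrial genes that differed were Cox6c (0.72), Cox7c (0.49), Ndufv2 (0.60), mt-Atp6 (0.96), mt-Atp8 (0.95), mt-Co3 (0.98), mt-Nd1 (0.84), mt-Nd5 (0.80) and mt-Nd6 (0.80). Other genes that differed were Abca8a (1.71), Arhgap33 (-1.78), Carmil2 (-1.98), Clcn2 (-1.55), Dpyd (1.76), Frk (1.67), Itga5 (-0.76), Kctd12b (1.80), Neat1 (-1.81), Pik3r3 (1.73), Plk1 (-0.81), Ptgfr (1.74), Rpl39l (1.94), Shox2 (2.35), Slc2a4 (-1.58), Tchp (-1.68) and Xlr (2.52). With the length and GC trend removed, Cox7c and mt-Nd6 changed sign.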

How the results depend on the processing

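The counts of genes higher and lower than in the femur (4199 and 4434) stayed within 1.5-fold in every alternative but the absolute scalings, which gave 1695 calls (16 and 1679) with spike-ins and 9072 and 828 with osteoblast genes. With 1 library left out they ran from 3039 to 4144 higher and 3576 to 4345 lower (6615 to 8469 in all). The libraries share numbers across bones. Deviations from the bone's mean correlated by -0.103 to 0.145 for same-numbered libraries and by -0.145 to 0.172 for the others. With 2 or 3 libraries in a bone such deviations constrain each other, so these values cannot tell whether animals were shared. With the library number as a replicate block the counts were 3716 and 3977. Removing the length and GC trend turned the fold changes of Hspe1 (-0.15), mt-Atp6 (-0.46), mt-Nd1 (-0.55), mt-Co3 (-0.43), mt-Atp8 (-0.48), mt-Nd6 (-0.80), mt-Nd5 (-0.20), Gata2 (0.04) and Arhgap33 (0.38), and the cause was not tested.

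The comparison with the frontal bone depended on the setting. Calls were 2154 (1007 higher, 1147 lower) with DESeq2, 1904 (1163 lower) without the filter, 1025 lower with the 5 libraries alone, 809 higher with limma-voom, 249 higher by library size, 46 higher and 1501 lower with osteoblast scaling, and 87 (38 and 49) once the length and GC trend was removed. In edgeR's test they were 0 in both directions under the replicate block (3504 at an unadjusted p under 0.05) and with spike-in scaling (166), and ran from 0 to 1963 (0 to 1036 higher, 0 to 927 lower) with 1 library left out. The cause was not tested.

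Without the member with the largest share, the parietal to femur ratio of shares was 0.258 for osteocyte, 0.311 for osteoblast, 1.5 for mast, basophil and eosinophil, 1.37 for monocyte and macrophage and 1.39 for stroma and adipocyte genes (0.075, 0.406, 2.5, 2.96 and 1.71 with it). Only 2 parietal libraries exist here, and leaving one out lost 25 or 21 of the 315 calls among named genes. The planned stricter filter kept more genes than the one used. Genes under about 3 counts in a bone cannot be ranked.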
